A study of Schmidtea mediterranea with 58 samples.

Results

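A group of 135 planarian transcripts was followed through the first 48 hours after amputation. In wounds of control animals each of them stood highest right after the cut, at 0 hours post amputation (hpa), and lowest at 24 hpa. The members were chosen from control libraries alone. Each count was scaled by its library's total (CPM, the count a transcript would have if every library had the same total), and L is log2 of the group median CPM plus 1. Of 28742 transcripts, 11714 had a control median of at least 5 CPM at 0 hpa, 1864 of these had their highest L at 0 hpa, 609 of those also had their lowest L at 24 hpa, and 135 fell in L by at least 0.8. No upper limit on the number had to be applied. The libraries labelled *equinox* RNAi took no part in the choice, so their time course is the independent reading of these transcripts, and the control time course is a description of the rule.

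Planarians rebuild missing body parts from pluripotent stem cells called neoblasts. After a cut the wound closes under a wound epidermis, a transient set of wound-induced genes is switched on, and in the following days an outgrowth of new tissue, the blastema, forms at the wound. Transcripts that go down at a wound can come from any tissue in the sample, such as epidermis, muscle, gut and nerve. In bulk tissue, fewer cells of a type and less RNA per cell cannot be told apart.

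The tissue was anterior-facing wounds of tail fragments of *Schmidtea mediterranea*, strain CIW4, with 5 wounds in 1 replicate. Control animals were fed double-stranded RNA of *unc-22*, a *C. elegans* gene, and the others double-stranded RNA against *equinox*, which encodes a predicted secreted protein. Animals were fed 8 times by the labels and cut 7 days later, or 3 days later by the methods. The times were 0 hpa, the early points of 3 and 6 hpa, then 16 and 24 hpa, and last 48 hpa. Every treatment and time had 5 libraries, but control had 4 at 48 hpa and *equinox* RNAi 4 at 0 hpa, which makes 58. All animals were RNAi-fed, so no group shows untreated animals, and nothing in the labels says whether replicates came from separate animals, so p-values measure the spread between these libraries.

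Library totals ran from 1312330 to 38053378 counts. In control the median total was 9711286 at 0 hpa and 20148964 at 24 hpa, while for libraries labelled *equinox* RNAi it was 15984826.5 and 18149516. The transcript of *equinox*, dd_20318, went against the label at 0 and 3 hpa, where single libraries labelled *equinox* RNAi held up to 38.3 CPM against at most 7.75 CPM in control, so the treatment is given as labelled throughout. In 5 libraries labelled *equinox* RNAi, replicate 1 of every time after 0 hpa, title and time field disagree on the time, and the title was followed. One control library at 6 hpa, replicate 5, stood low for the members (mean level 3.57 against 4.42 to 4.71 in the other 4). Chosen without it, the members numbered 127, of which 125 were among the 135.

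The members covered a wide range of levels. Their control medians at 0 hpa lay between 5.15 and 452 CPM, with a median of 27.8 CPM, and CPM is not corrected for transcript length. At 24 hpa a median of 48.0% of the 0 hpa value was left in control (6.28% to 57.0%), and at 48 hpa 56.8% (8.00% to 87.45%). The median over members of L went from 4.85 at 0 hpa to 4.71, 4.60, 4.18 and 3.74 at 3, 6, 16 and 24 hpa, and stood at 4.01 at 48 hpa. The fall came late for most. The largest single step down was from 16 to 24 hpa for 61 members and from 6 to 16 hpa for 49, against 16 from 3 to 6 hpa and 9 in the first 3 hours. A total of 86 members went down at every step to 24 hpa. The fall was under 1 for 71 members, 1 to 1.5 for 47 and over 1.5 for 17, and all of these values chose the members. The members nearest the limit were dd_2285, dd_1609 and dd_5998, with changes of -0.8055, -0.8054 and -0.8025, and just outside it lay dd_9381, dd_7165 and dd_8720, with -0.7995, -0.799 and -0.7987.

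**Figure D1:**
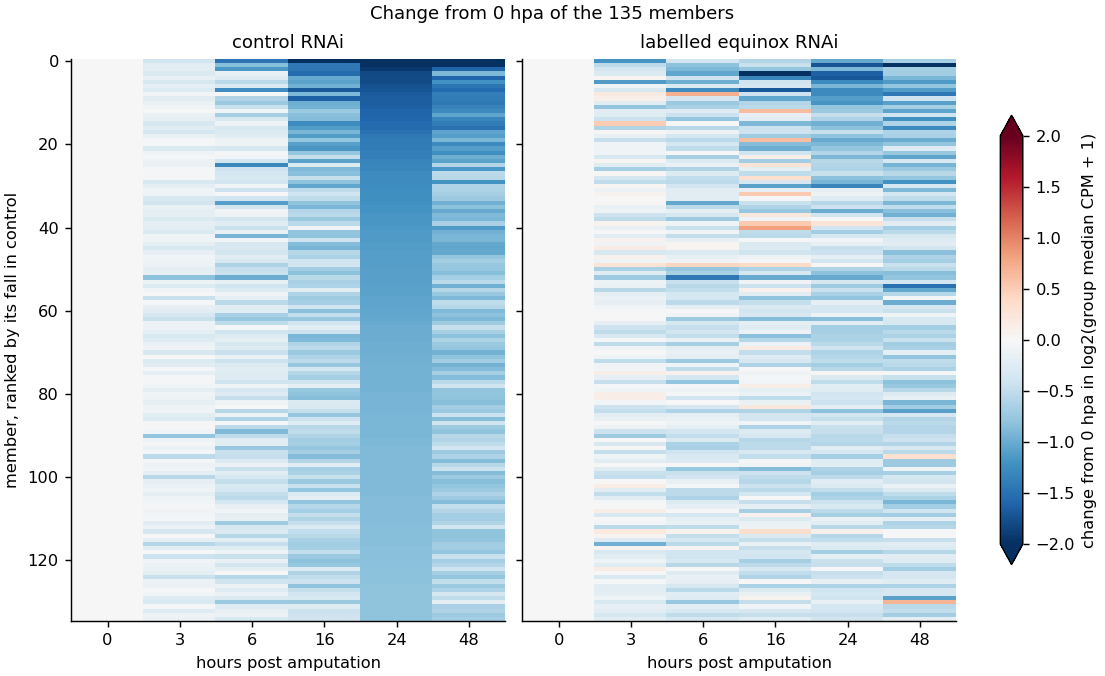
Change from 0 hpa in log2(group median CPM + 1) for each of the 135 members (rows, ranked by their fall in control) at each time (columns), in control and in libraries labelled *equinox* RNAi. Blue is below 0 hpa and red above it. The control panel is blue by the choice of members, and its 24 hpa column holds the lowest value of every row. For dd_7166 and dd_182 the falls pass the end of the colour scale at 24 hpa and at other times, which then share 1 colour. In the right panel 130 rows are below 0 hpa at 24 hpa and the lowest column differs between rows.

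The rule was also read in control libraries that it had not used. When members were chosen in control replicates 1 to 3 only, 153 transcripts passed, 91 of them among the 135. In control replicates 4 and 5, which had no part in that choice, all 153 stood lower at 24 than at 0 hpa, with a median change in L of -0.94 against -1.04 in the replicates that chose them. The time of the lowest value was less stable, since in replicates 4 and 5 it was 24 hpa for 44 of the 153 and 48 hpa for 74, the latter resting on 1 library. The spread of the lowest time given next for libraries labelled *equinox* RNAi is therefore not set against the 24 hpa that the rule fixes in control.

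Most members also stood lower after the cut in libraries labelled *equinox* RNAi. The median change in L from 0 to 24 hpa was -0.47, against -0.99 in control, which chose the members. At 24 hpa 130 members stood below 0 hpa and 5 above (dd_8939, dd_1090, dd_4733, dd_1394 and dd_4363). Of all 11714 transcripts at 5 CPM or more, 7086 also stood below 0 hpa at that time. Only 25 fell by at least 0.8, and 1 of the 135, dd_380, changed more than in control (-1.33 against -1.24). The lowest group median came at 24 hpa for 31 members, at 48 hpa for 60, at 16 hpa for 27, at 6 hpa for 13 and at 3 hpa for 4. Over all 11714 transcripts at 5 CPM or more the lowest time was 24 hpa for 1893 and 48 hpa for 2334. At 0 hpa 123 of the 135 had a lower median in libraries labelled *equinox* RNAi than in control, and at 24 hpa 104 had a higher one. Both control values are extremes that the rule picked, so nothing is read from these counts.

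**Figure D2:**
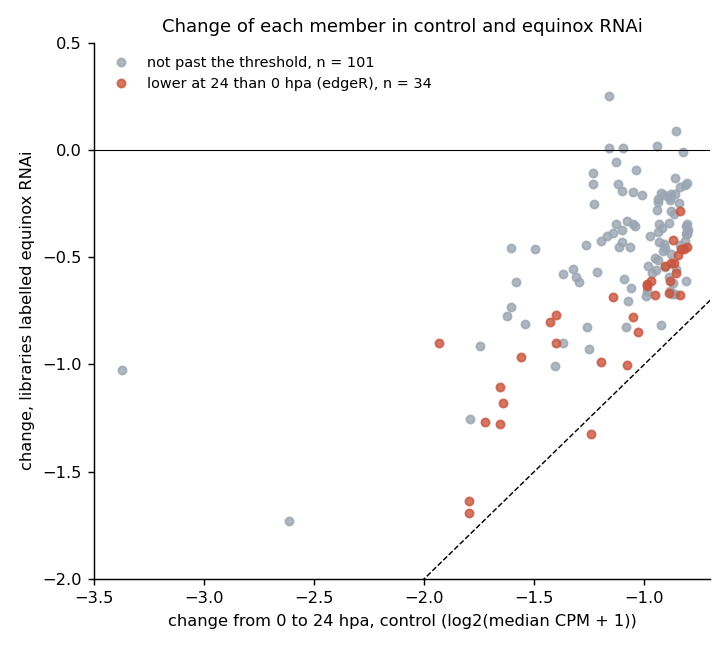
Change in log2(median CPM + 1) from 0 to 24 hpa of each member in control (x axis) and in libraries labelled *equinox* RNAi (y axis), with the line of equal change dashed. Of the 135 points 134 lie above the line, beside control values that chose the members; the 34 in red were lower at 24 than at 0 hpa by edgeR in libraries labelled *equinox* RNAi.

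The tests were made within libraries labelled *equinox* RNAi, with edgeR's quasi-likelihood test over all 20129 transcripts that passed a filter on low counts and Benjamini-Hochberg adjustment at 0.05. All 135 members passed the filter. At 24 against 0 hpa, 34 members were lower and 0 higher, beside 3.02% and 2.94% of all transcripts tested, and 54 members had an unadjusted p under 0.05 in either direction. Leaving out any 1 of the 9 libraries gave between 24 and 37. Among the 9 are the libraries at 0 hpa in which dd_20318 went against the label. These were left out singly and never together, so the count without all of them is not known. The median log2 fold change was -0.39 over members and -0.01 over all transcripts. At 16 against 0 hpa 44 members were lower and 0 higher, beside 6.05% and 6.13% of all transcripts, and 55 had an unadjusted p under 0.05 in either direction. A total of 31 members were lower at both times. Both comparisons use the same 4 libraries at 0 hpa, so the calls are not independent. No share of all transcripts is given beside the 31 or beside the counts at an unadjusted p, and nothing is read from them. At 48 against 0 hpa 35 members were lower, beside 4.0% of all transcripts, and 1 was higher, beside 2.7%. The early changes were few, with 1 member lower at 3 hpa (0.388% of all transcripts) and at 6 hpa 11 lower and 1 higher (5.42% of all transcripts in either direction). Members must reach 5 CPM in control at 0 hpa, and over the 11714 transcripts at that level the shares were larger. Those lower were 4.5% at 24 hpa, 8.3% at 16 hpa and 5.5% at 48 hpa, and those higher 4.1%, 8.2% and 3.5%. At 6 hpa the share in either direction was 7.5%. For 31 of the 135, all 5 libraries at 24 hpa lay below all 4 at 0 hpa, which held for 5.26% of all transcripts tested. The count at 16 hpa depended on the fit. Replicate numbers marked libraries that deviated together at 16 and 0 hpa (r from 0.43 to 0.71 in 4 pairs). A fit of these groups alone with the replicate number as a block found 71 members lower, beside 11.7% of all transcripts, and 42 of them were among the 44. That fit changed both the groups and the block, and the block in the fit of all groups moved the count little. What the larger count comes from was not tested. At 24 and 0 hpa 2 of 4 pairs had r above 0.1, and the block changed no count there by over 1.5 times.

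Members differed in how far single libraries scattered, and the scatter was shared. For each transcript the deviation of each library from its group mean was taken in log2(CPM + 1), and its correlation with the mean deviation of the other members was computed across the 58 libraries. As a description, the median r over members was 0.86, and 91 of the 135 (67.4%) were above 0.8. The scatter was not confined to the members, since 1769 of 11579 other transcripts at 5 CPM or more (15.3%) also had r above 0.8. The mean level of these 1769 non-members moved with the groups as well. In control it was 5.07 ± 0.18 (SD, n = 5) at the cut and 4.56 ± 0.24 (SD, n = 5) by 24 hpa. The same values were 4.80 ± 0.29 (SD, n = 4) and 4.65 ± 0.33 (SD, n = 5) for libraries labelled *equinox* RNAi. What this common variation comes from was not tested.

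A smaller set of 18 members had r below 0.5, and 7 of these had r below 0. Such values were common among the 11579 other transcripts, 6993 of which had r below 0.5 and 4247 below 0, with a median r of 0.31. The limit of 0.5 was set after the values were seen. The 18 were dd_315, dd_10318, dd_1040, dd_380, dd_1653, dd_14646, dd_831, dd_379, dd_13100_0_2, dd_6236, dd_6092, dd_10866, dd_7852, dd_1039, dd_12821, dd_607_1_1, dd_10724 and dd_3672. Their mean level in libraries labelled *equinox* RNAi was 5.68, 5.74, 5.76 and 5.79 at 0 hpa and 4.79, 4.82, 4.85, 4.93 and 4.95 at 24 hpa. The times did not overlap and the libraries of each group lay close together. Low r leaves little shared scatter in a mean, so this closeness follows in part from the split. The other 117 members stood at 3.84, 4.09, 4.49 and 4.68 at 0 hpa and at 3.42, 3.64, 3.81, 4.28 and 4.33 at 24 hpa, so that 2 libraries at 24 hpa were above 2 at 0 hpa.

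The calls differed along this split. Both r and the tests come from the same libraries, and shared scatter also widens standard errors. The counts by r are thus a description and no test, and no share of all transcripts by r is given beside them. At 24 against 0 hpa 16 of the 18 were lower and 18 of the 117, with median log2 fold changes of -0.72 and -0.35. At 16 against 0 hpa it was 17 of 18 and 27 of 117. The time of the lowest median differed as well, at 16 hpa for 11 of the 18 and at 48 hpa for 1, against 16 and 59 of the 117. In a fit with the mean level of the 1769 non-members as a covariate, chosen after seeing the data, 44 members were lower at 24 hpa (6.18% of all transcripts) and 63 at 16 hpa (9.86%), and the median log2 fold change of the members at 24 hpa was -0.25.

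**Figure D3:**
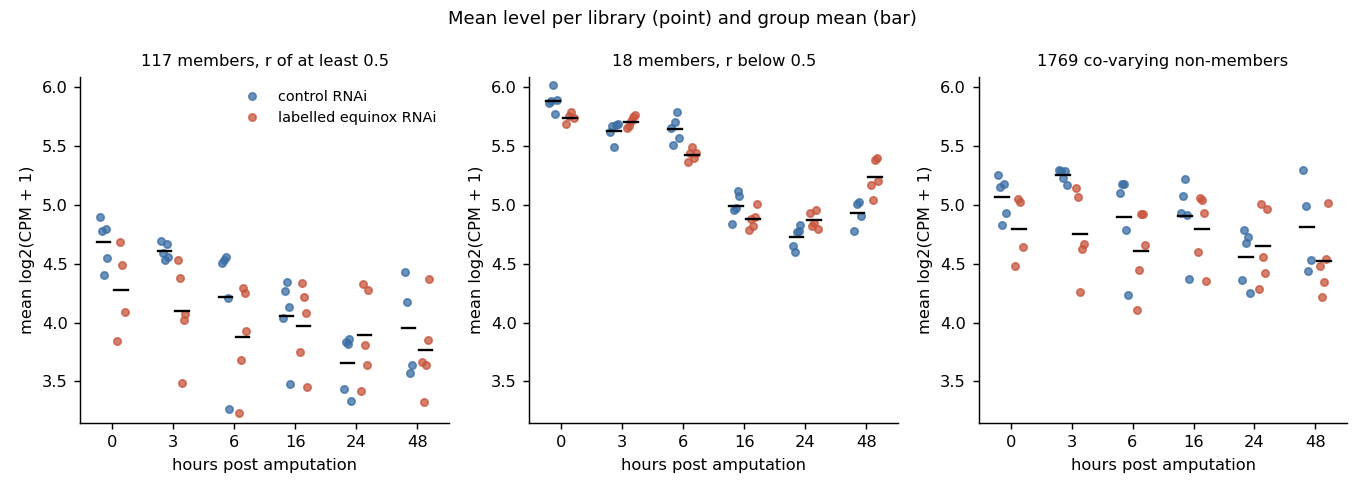
Mean log2(CPM + 1) in each library (points) and group mean (bars) by hours post amputation, for the 117 members with r of at least 0.5, the 18 members with r below 0.5 and 1769 non-members that co-varied with the members; the 3 panels share 1 scale. The 18 go from a mean of 5.74 at 0 hpa to 4.87 at 24 hpa in libraries labelled *equinox* RNAi, whose groups are spread more widely in the other panels.

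**Figure D4:**
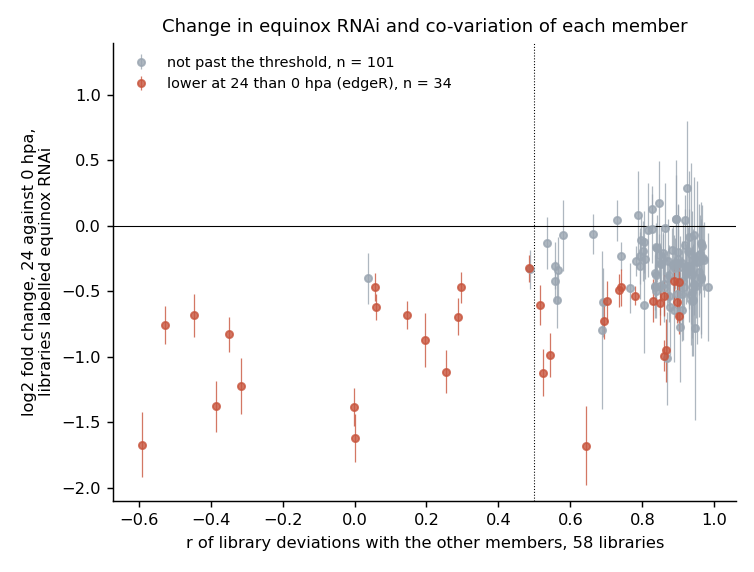
Log2 fold change of each member at 24 against 0 hpa in libraries labelled *equinox* RNAi, with its standard error as a bar, against the correlation of its library deviations with the other members. To the left of the dotted line at 0.5 lie 18 members, 16 of them past the threshold (red), and to the right 117, of which 18 are.

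Among the 18, dd_315 had the largest step. In libraries labelled *equinox* RNAi it stood at 400.3, 407, 491 and 519 CPM at 0 hpa, at 76.6, 98.8, 104, 125 and 140 CPM at 16 hpa and at 91.4, 121, 144, 147 and 191 CPM at 24 hpa. Every library at 16 and 24 hpa was far below the lowest at 0 hpa, with log2 fold changes of -2.05 (SE, the standard error, 0.247, edgeR adjusted p = 9.47e-09) and -1.67 (SE 0.245, adjusted p = 2.13e-06). At 48 hpa it was back at 209, 224, 277, 286 and 291 CPM. That was higher than at 24 hpa by 0.84 (SE 0.231, edgeR adjusted p = 0.0315) with no overlap between the libraries, and still below 0 hpa. In control its median went from 378 to 108 and then to 202 CPM at the same times.

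The transcript dd_379 behaved much like it, from 216, 231, 237 and 253 CPM at 0 hpa to 58.7, 69.2, 71.6, 81.3 and 91.2 CPM at 24 hpa in libraries labelled *equinox* RNAi. The log2 fold change was -1.62 (SE 0.183, edgeR adjusted p = 4.25e-09). The control medians of dd_379 were 236 and 67.4 CPM. Its neighbour in number, dd_380, had 230, 234, 234 and 361 CPM at 0 hpa and 84.7, 88.5, 92.7, 110.1 and 119 CPM at 24 hpa. It changed by -1.38 (SE 0.195, edgeR adjusted p = 8.73e-07), and the highest library at 24 hpa was well below the lowest at 0 hpa. Whether near-identical transcripts share reads was not examined.

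Among the members called lower at 6 hpa, dd_13774 and dd_831 had the largest changes. With the *equinox* RNAi label dd_831 went from 29.1, 33.2, 34.1 and 34.7 CPM at 0 hpa to 12.9, 13.4, 13.6, 14.5 and 14.7 CPM at 6 hpa. It was at 8.67, 11.5, 13.4, 13.4 and 13.7 CPM at 24 hpa, so most of the drop was over by 6 hpa. The log2 fold changes were -1.15 at 6 hpa (edgeR adjusted p = 5.16e-08) and -1.39 at 24 hpa (edgeR adjusted p = 4.12e-10). For dd_13774, which scattered with the other members (r = 0.52), the change was -0.85 at 3 hpa (edgeR adjusted p = 0.00408), the only call among members at that time, -1.54 at 6 hpa (adjusted p = 1.46e-08) and -1.12 at 24 hpa (adjusted p = 1.16e-05).

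Gene names could be given for 7 members only. The study's annotation table was held for its first 1200 rows, which include 652 transcripts at 5 CPM or more, and 7 of these (1.07%) were members, beside 1.15% of all transcripts at that level. Names are the human matches in that table and are uncertain. For dd_1040 the table gives no human match, only the mouse match Ganc and a domain. A second annotation table of the study, the one that goes with the *equinox* experiment, gives other human names for the same numbers, with 0 of 618 transcripts named in both tables alike and none of the 7 members. The table used here was taken because its cross-references to an older assembly carry the same number for 1099 of 1174 transcripts, and which names are right was not tested. Every name and gene list below is that of the table used. HSPB1 is a small heat shock protein, a chaperone that binds unfolding proteins. The transcript listed under it, dd_1039, had the highest control median of any member at 0 hpa. In libraries labelled *equinox* RNAi it stood at 209, 268, 276 and 278 CPM at 0 hpa and at 273, 399, 444, 452 and 562 CPM at 6 hpa. It was the 1 member called higher at 6 hpa, by 0.80 (edgeR adjusted p = 0.000744). By 24 hpa it was at 95.2, 106, 112, 120.4 and 150.3 CPM, below every library at 0 hpa, a log2 fold change of -1.11 (SE 0.162, edgeR adjusted p = 1.37e-06). In control the median of dd_1039 at 6 hpa was 449.8 CPM and that at 0 hpa 452 CPM. The rule required the control median to be highest at 0 hpa, so a rise could not appear in it. The control means of dd_1039 were 457 CPM at 0 hpa and 497 CPM at 6 hpa, and no difference between the treatments is read from this.

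LDB3 is a protein of the Z-disc of striated muscle in vertebrates. Its match, dd_10318, went in libraries labelled *equinox* RNAi from 14.4, 15.3, 19.2 and 19.4 CPM at 0 hpa to 8.67, 9.33, 9.61, 10.4 and 10.9 CPM at 24 hpa. The fall was by 0.75 on the log2 scale (SE 0.147, edgeR adjusted p = 0.000273), with no overlap. At 48 hpa dd_10318 was back at 14.8, 16.4, 16.9, 18.8 and 20.2 CPM, within the range of 0 hpa or just above it, 0.78 above 24 hpa (edgeR adjusted p = 0.000251). In control it stayed low at 48 hpa, at 6.39, 7.11, 7.88 and 7.98 CPM, after 6.20, 6.52, 6.61, 7.39 and 8.46 CPM at 24 hpa.

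MFSD8 is a transporter of the lysosomal membrane. The 4 libraries labelled *equinox* RNAi held dd_10724, its match, at 22.9, 24.6, 24.6 and 29.6 CPM at 0 hpa and the 5 at 24 hpa at 18.1, 18.9, 19.97, 20.3 and 21.6 CPM. The groups did not overlap, but the log2 fold change of -0.33 (edgeR adjusted p = 0.0491) was lost in 7 of 9 fits that left out 1 library. The transcript dd_1040, which holds a DUF3421 domain, was lower at 24 hpa by 0.68 (SE 0.162, edgeR adjusted p = 0.00402). The remaining 3 named members scattered with the group and were not called at 24 hpa. They were matches of the zinc importer SLC39A1 (dd_10160, log2 fold change -0.47, adjusted p = 0.373), of NEURL2, an adaptor of a ubiquitin ligase in muscle (dd_10074, -0.46, adjusted p = 0.103), and of RSL24D1, a factor of large ribosomal subunit assembly (dd_1059, -0.52, adjusted p = 0.349). At 16 against 0 hpa dd_10074 was called lower, by 0.61 (SE 0.172, edgeR adjusted p = 0.0104), and dd_10160 and dd_1059 were not called.

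Lists of annotated transcripts at 5 CPM or more held few of these names, since the lists are not complete and leave out RSL24D1, MFSD8 and NEURL2. LDB3 was 1 of 13 of muscle and cytoskeleton, HSPB1 1 of 8 of stress and ubiquitin, and SLC39A1 1 of 33 of transporters and metabolism. The lists of 29 of cilia and axoneme, 22 of neuronal receptors, channels and synapse, 9 of ribosome and translation and 17 of matrix, proteases and secreted proteins held none of the 7. The median change in L from 0 to 24 hpa in control lay between -0.34 and 0.12 for the 7 lists. At 24 against 0 hpa in libraries labelled *equinox* RNAi, 3.02% of all transcripts tested were lower and 2.94% higher. Over those at 5 CPM or more the shares were 4.5% and 4.1%. The numbers lower were 2 of the cilia, 3 of the neuronal and 1 of the muscle list, LDB3 itself, with 0 higher in each. In the stress list 2 were lower and 1 higher, in the matrix list 2 and 2, in the transporter list 2 and 2, and in the ribosome list 0 and 0.

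**Figure D5:**
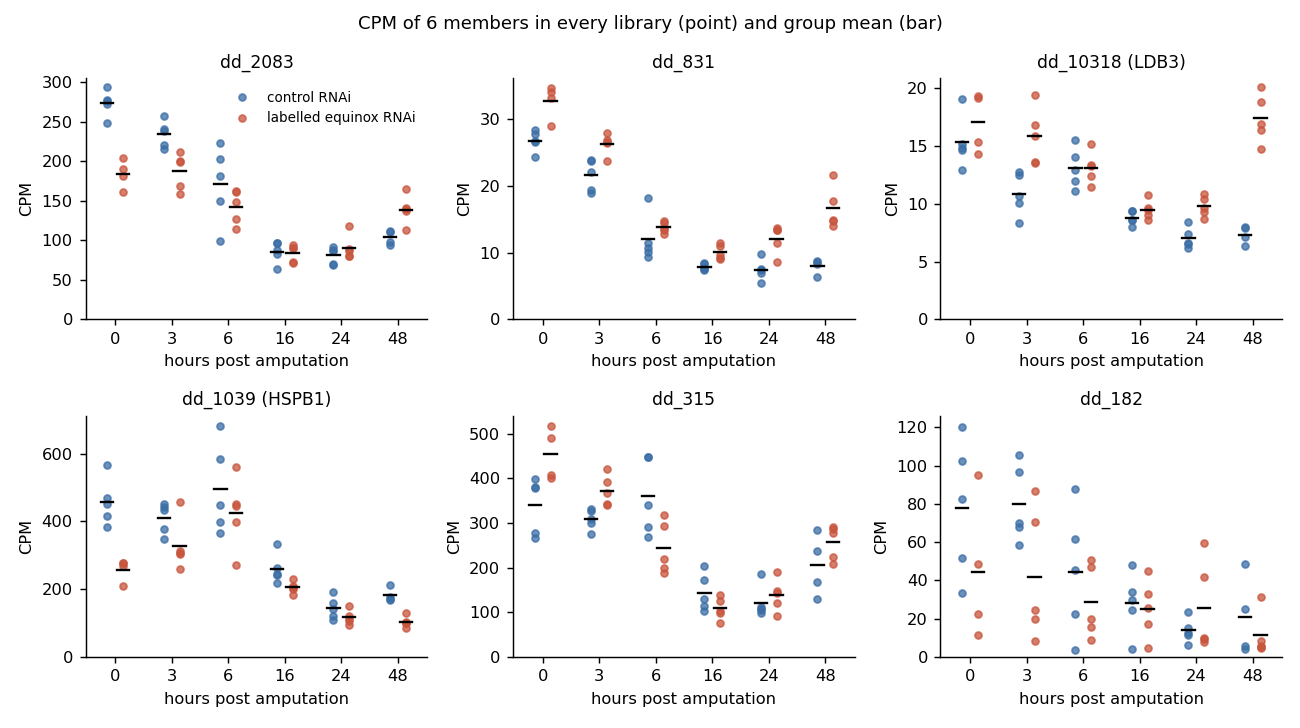
CPM of 6 members in every library (points; bars are group means; linear axes from 0) by hours post amputation, in control and in libraries labelled *equinox* RNAi. At 48 hpa all libraries labelled *equinox* RNAi lie above all control libraries for dd_831 and dd_10318 and below them for dd_1039, and for dd_182 the libraries of every group are spread.

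The members ranked 1, 2 and 6 by their fall in control (dd_7166, dd_182 and dd_7091) were not called, unlike those ranked 3, 4 and 5 (dd_4915, dd_315 and dd_379). In control dd_7166 went from a median of 26.8 to 1.68 CPM and dd_182 from 82.6 to 12.6 CPM. At 0 hpa dd_7166 stood at 4.28, 10.8, 26.8, 35.9 and 38.1 CPM in control and at 3.08, 3.19, 8.73 and 10.1 CPM in libraries labelled *equinox* RNAi. For dd_182 the 0 hpa values were 33.2, 51.7, 82.6, 102 and 120.2 CPM in control and 11.5, 22.3, 48.4 and 95.2 CPM under the other label, so single libraries of 1 group lay far apart. At 24 hpa libraries labelled *equinox* RNAi held dd_182 at 7.73, 9.45, 9.94, 41.9 and 59.6 CPM. Neither dd_7166 nor dd_182 passed the threshold at 24 against 0 hpa, with log2 fold changes of -0.80 (SE 0.604, edgeR adjusted p = 0.569) and -0.78 (SE 0.705, adjusted p = 0.657). The control median of dd_7091 was 41.15 CPM at 0 hpa and 11.16 CPM at 24 hpa. In libraries labelled *equinox* RNAi dd_7091 changed by -0.57 (SE 0.423, edgeR adjusted p = 0.554).

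Ranked 3 was dd_4915, from a control median of 10.2 to 1.94 CPM. Under the *equinox* RNAi label it fell from 5.96, 6.83, 8.39 and 9.85 CPM at 0 hpa to 2.85, 3.43, 3.61, 3.84 and 5.79 CPM at 24 hpa, a log2 fold change of -0.95 (SE 0.240, edgeR adjusted p = 0.00735). Without replicate 2 at 0 hpa the adjusted p was 0.0551. The change of dd_13694 at the same times was -1.68 (SE 0.299, edgeR adjusted p = 6.51e-05), from 3.15, 4.08, 4.90 and 8.70 to 0.872, 1.06, 1.43, 1.65 and 2.75 CPM. In this comparison 8 members had changes above 0, the 4 largest being dd_7231 at 0.29, dd_1090 at 0.17, dd_9182 at 0.13 and dd_4363 at 0.08, and none of the 8 was called.

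Recovery after 24 hpa was seen in few members of libraries labelled *equinox* RNAi. The rule makes 48 hpa higher than 24 hpa in control. In libraries labelled *equinox* RNAi 59 members had a higher median L at 48 than at 24 hpa, 9 were called higher, beside 1.36% of all transcripts, and 1 was called lower, dd_213, beside 1.57%. Over transcripts at 5 CPM or more the shares were 1.9% and 2.2%. The 9 were dd_315, dd_379, dd_2083, dd_380, dd_10318, dd_1653, dd_6092, dd_11839 and dd_9182, of which 6 are among the 18 with r below 0.5 and 8 had been called lower at 24 against 0 hpa. Both comparisons use the same libraries at 24 hpa, so the 8 are a description. When the 5 libraries with differing times were placed by the time field, 1 of the 9 was left, dd_6092 (log2 fold change 0.67, adjusted p = 0.0247 by edgeR). When those libraries were left out, 9 members were called. For dd_6092 the libraries held 41.9, 45.2, 46.9 and 54.6 CPM at 0 hpa, 27.6, 28.0, 28.7, 32.0 and 32.9 CPM at 24 hpa and 51.0, 51.6, 57.6, 60.7 and 61.8 CPM at 48 hpa. Every library at 48 hpa was above every one at 24 hpa, and the change was 0.87 (SE 0.0968, edgeR adjusted p = 1.64e-08). The member dd_9182 was not lower at 24 hpa and rose later, to 16.3, 21.2, 22.8, 23.1 and 29.8 CPM at 48 hpa from 7.43, 12.9, 14.7 and 16.8 CPM at 0 hpa. It is the 1 member called higher at 48 against 0 hpa, by 0.80 (SE 0.174, edgeR adjusted p = 0.00159).

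Counts of members past edgeR's threshold between the treatments are a description. The control values in them chose the members, being the highest at 0 hpa and the lowest at 24 hpa, so nothing is read from their number, their direction or the shares of all transcripts printed beside them. At 0 hpa 8 members passed the threshold as lower in libraries labelled *equinox* RNAi, beside 0.949% of all transcripts. Leaving out control replicate 1 or *equinox* RNAi replicate 1 or 5 at 0 hpa brought the number to 5, 2 and 4. Of the 8, 5 were also called lower at 24 against 0 hpa. At 24 hpa 4 were higher (dd_4915, dd_831, dd_1040 and dd_7507), beside 0.576%, and 2 without control replicate 2. At 16 hpa 1 was lower, beside 0.298%. At 3 hpa 4 were higher and 5 lower, beside 5.78% and 5.55%, and at 6 hpa 13 were lower, beside 3.96%. At 48 hpa 12 were higher, beside 8.07%, and 1 was lower, dd_1039, beside 9.46%. At 5 CPM or more the shares were 1.4% lower at 0 hpa, 0.76% higher at 24 hpa and 0.45% lower at 16 hpa. They were 9.2% higher and 5.5% lower at 3 hpa, 5.7% lower at 6 hpa, and 9.7% higher and 12.5% lower at 48 hpa.

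The 12 at 48 hpa differed by log2 fold changes from 0.32 to 1.29. For dd_831 control held 6.44, 8.26, 8.57 and 8.75 CPM at 48 hpa, and libraries labelled *equinox* RNAi 14.1, 14.7, 14.9, 17.8 and 21.7 CPM. For dd_1040 the values were 16.6, 19.4, 24.4 and 24.7 CPM against 44.0, 44.2, 45.4, 50.5 and 52.0 CPM. The groups did not overlap for either transcript, nor for dd_10318, whose difference of 1.29 was the largest of the 12. For dd_26777 the log2 fold change was 0.69 (SE 0.216, edgeR adjusted p = 0.0201), and the groups overlapped. The call of dd_26777 was lost in 3 of 9 fits that left out 1 library. In the other direction dd_1039 was at 169, 170.0, 176 and 213 CPM in control and at 83.8, 99.2, 100.7, 101 and 130.1 CPM in libraries labelled *equinox* RNAi, a log2 fold change of -0.78 with no overlap. Of the 12, 6 belong to the 18 members with r below 0.5.

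The interaction of treatment with the change from 0 to 24 hpa subtracts the control fall, which the rule required to be at least 0.8, so its sign and size follow from the choice and are no test of the members. It was above 0 for 132 of 135 members, with a median of 0.57 on the log2 scale, and 1 member passed the threshold, dd_2083, beside 0.233% of all transcripts in either direction. With the co-varying non-members as a covariate the median interaction of the members was 0.27. In that fit 4 members were called, all higher, beside 0.253% of all transcripts. In control dd_2083 went from 248, 272.5, 276, 277 and 293 CPM at 0 hpa to 68.7, 69.9, 87.0, 87.8 and 91.7 CPM at 24 hpa. Under the *equinox* RNAi label it went from 161, 182, 190.4 and 204 CPM to 80.2, 80.7, 85.9, 89.3 and 118 CPM. The groups of the 2 treatments overlapped at 24 hpa and not at 0 hpa. The control values at both times chose the member, so nothing is read from this. Within libraries labelled *equinox* RNAi the fall of dd_2083 was by 0.99 (SE 0.116, edgeR adjusted p = 9.04e-09).

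Transcripts that reached their lowest control value at 48 instead of 24 hpa, chosen by an otherwise equal rule, gave the closest comparison. There were 175 of them, none shared with the 135. In libraries labelled *equinox* RNAi the lowest time was 48 hpa for 101 of the 175 (57.7%) and for 60 of the 135 members (44.4%), and 24 hpa for 30 (17.1%) and 31 (23.0%). At 24 against 0 hpa 40 of the 175 were lower (22.9%) and 34 of the 135 (25.2%), and at 48 against 0 hpa 102 (58.3%) and 35 (25.9%). Median log2 fold changes at 48 against 0 hpa were alike, at -0.55 and -0.54. No test of these differences was made, since both sets were chosen from the same control libraries.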

How the data were processed

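RNA of wounds was sequenced in 58 libraries. Bowtie (1.1.2 in the methods, 1.2 in the processing notes) aligned 50 bp reads against the transcriptome dd_Smed_v6, and bedtools 2.26.0 gave the reads of each contig. The authors added up the contigs of a transcript and deposited raw counts of 28742 transcripts, without normalization. The processing notes also name cutadapt 1.8, SAMtools 1.6 and DESeq. No column was left unmapped. Groups came from the titles.

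Members were chosen by the rule given above on CPM per library total. They and the gene lists were chosen with earlier results of these data known. Counts of all groups were fitted in 1 model with edgeR 4.0.16 under R 4.3.3 (robust quasi-likelihood fit, TMM, filterByExpr with a minimum count of 10, 20129 transcripts, at least 99.87% of each library's counts), with Benjamini-Hochberg adjustment and a threshold of 0.05. The test was checked on simulated data. Transcripts named are the 6 members with the largest falls in control, the 6 of highest CPM at 0 hpa, all annotated members, up to 4 in each direction among those that differed between treatments at 24 and at 48 hpa, the 4 largest falls past the threshold and the 4 largest rises at 24 hpa in libraries labelled *equinox* RNAi, and the 3 on each side of the limit. Others were named after their values were seen. No replicate was a copy of another: chi-square per degree of freedom between replicates was at least 2.39.

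Whether replicate numbers pair libraries was read from correlations of deviations from the group means. Every pair lay above 0.1 for libraries labelled *equinox* RNAi at 16 against 0 hpa and in no other comparison used here; the labels name no shared batch.

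Alternatives were RLE size factors, DESeq2 1.42.0, no filter, a replicate block, a fit of the compared groups alone, the 5 libraries of doubtful time omitted or moved to their time field, each library left out in turn, and other choices of members. A covariate and a block within the groups compared were added after seeing the data. Annotation came from 1 of 2 tables of the study that name the same transcripts differently, of which 1200 rows were held. Sequences of the transcripts were not used here, which left GC content and the sharing of reads among alike transcripts unexamined.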

Additional observations from a re-analysis of the deposited data

Results flagged for a closer look

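The mean level of the members, in log2(CPM + 1), was 3.57 in control replicate 5 at 6 hpa, farther from the other 4 libraries of its group than chance gives in about 1 of 20 groups. It was 1 of 12 groups looked at. The members chosen without that library numbered 127, and 32 of them were called lower at 24 against 0 hpa in libraries labelled *equinox* RNAi.

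The change of dd_2083 from 0 to 24 hpa differed between the treatments by 0.71 on the log2 scale (standard error 0.161), the smaller fall being that of libraries labelled *equinox* RNAi, and its interaction term passed the threshold of edgeR's test. The control libraries in that term also chose the member, so the difference is a description and no test of it. The call was kept in 8 of 19 fits that each left out 1 library, with differences from 0.61 to 0.76.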

How the results depend on the processing

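In libraries labelled *equinox* RNAi, fits that left out 1 library each found 24 to 37 members lower at 24 hpa, 32 to 47 lower at 16 hpa and 7 to 10 higher at 48 than at 24 hpa. With the replicate block added to the fit of all groups these counts were 34, 46 and 9. When the block went into a fit of the compared groups alone 71 were lower at 16 hpa, and with the time field 1 was higher at 48 than at 24 hpa. A fall of at least 1 left 64 members, with a median change of -1.23 in control and 17 lower at 24 hpa, since fewer members were tested. Counts between treatments moved most. At 0 hpa they were 14 with only the groups compared, 5 with the block as well, 13 with the covariate and 2 to 10 without 1 library. At 24 hpa the same settings gave 2, 0 (edgeR; 28 members at an unadjusted p under 0.05, and 5 calls by DESeq2), 11 and 2 to 5. At 48 hpa the groups compared with the block gave 8 (13 with the block in the fit of all groups), the covariate 30, and leaving out 1 library 11 to 17. Of the 30, 29 were higher, beside 11.05% of all transcripts, and 1 was lower, beside 13.37%. The 13 with the covariate at 0 hpa were all lower, beside 1.65%, and the 11 at 24 hpa all higher, beside 1.35%. No shares are given for the other settings, so nothing is read from those counts. For the interaction the count was 0 without a filter (edgeR; 50 members at an unadjusted p under 0.05), 3 by DESeq2, 4 with the covariate, 0 to 3 without 1 library, and 2 with the block, with only the groups compared, with both, or without the 5 libraries of differing times. The cause of these moves was not tested. The other 59 values of this kind stayed within 1.5 times, or for the fall in control within 1 SD. Among values of named members under settings other than leaving out 1 library, 304 kept their side of the threshold, 17 lost a call and 3 gained one. The shallowest library, a control library at 3 hpa, held 1312330 counts, and what depth limits among members of few CPM was not tested.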
